A study of Mus musculus with 2 samples.

Results

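Sterol synthesis enzymes and 2 of their regulators were followed by RNA sequencing of polyadenylated RNA from brown adipose tissue, a fat depot that burns lipid to make heat. The 8 genes were chosen by name for their roles and found in the files by Entrez identifier: Hmgcs1, Idi1, Sqle, Lss, Cyp51, Nsdhl, Insig1 and Srebf2. Earlier results of these data were known when the genes were chosen. They are 8 of the 16174 genes listed in either library, and all 8 were listed in both. The tested library was D3BKO, from mice with the genotype D3Bfl/fl-UCP1-Cre+/-, in which both D3B alleles are floxed and a Cre recombinase is expressed under Ucp1 control, that is in brown adipocytes. It was set against D3BWT, from mice with the genotype D3Bfl/fl, which carry the same floxed alleles and for which no Cre is named. Mice of both groups were of the C57BL/6 strain, ate chow and were 45 weeks old, and the title of the series gives them as female. D3B is read here as Dnmt3b, a DNA methyltransferase, from knowledge of the study. Cells of the depot other than brown adipocytes are not targeted by this Cre, so they keep the gene. The labels do not say how many mice a library holds.

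Cholesterol is built from acetyl-CoA by a chain of enzymes that first makes mevalonate and isoprenoids, then squalene, then the ringed lanosterol, which is trimmed to cholesterol. The genes of this chain are switched on together by SREBP2, a membrane-bound factor that is held in the endoplasmic reticulum by SCAP and INSIG proteins while sterols are plentiful and is cut free when they run low. Insig1 is itself a target of this factor, so its product closes a feedback loop. The related factor SREBP1c chiefly drives the genes of fatty acid synthesis, a busy pathway in brown fat.

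There was 1 library per genotype, so no difference between genotypes can be tested and no p-value is given. Depth was 10068359 expected counts in D3BKO, with 15490 genes listed, and 9666528 in D3BWT, with 15428. Each ratio is D3BKO over D3BWT of FPKM (fragments scaled by transcript length and library depth), followed by its 95% interval from the counts, an exact conditional Clopper-Pearson interval. Intervals cover counting error only, with every read taken as an independent molecule, and say nothing of the spread between mice. The sample descriptions place D3BKO on lane 1 and D3BWT on lane 2, and effects of lane, of Cre itself and of losing D3B cannot be told apart. Dnmt3b itself was at 0.18 FPKM in D3BKO and 0.39 FPKM in D3BWT, on 7 and 15 counts, a ratio of 0.462 (0.159 to 1.20), and the gene-level value includes exons outside a deletion and cells without Cre. Ucp1, which defines the tissue, was at 4271 FPKM in D3BKO and 4987 FPKM in D3BWT. In bulk tissue, fewer cells of a type and less RNA per cell cannot be told apart.

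The upstream sequence of the genes is shown first. The genes were chosen for roles in a chain that SREBP2 drives. Motifs of SREBP2 and its partners are therefore not independent of the choice. RefSeq promoter windows on GRCm38.p6 were held for 7 of the 8 genes. The 250 bases upstream of the start were searched on both strands for the sterol regulatory element core TCACNCCAC, for its shorter form CACNCCAC, for CCAAT, the box of the factor NF-Y that is known to act beside SREBP, and for GGGCGG, the box of Sp1. The form TCACNCCA, which lacks the last letter, was added after the promoters had been read. The sterol regulatory element forms overlap each other, since each match of the longest is also a match of both others. For each gene 70 of these bases that hold a CCAAT or a sterol regulatory element form are printed 5′ to 3′ on the strand of the gene, and further matches lie outside them. Capitals mark the sterol regulatory element forms and CCAAT, which reads ATTGG when it lies on the opposite strand.
Hmgcs1, chr13:119690164-119690233, plus strand: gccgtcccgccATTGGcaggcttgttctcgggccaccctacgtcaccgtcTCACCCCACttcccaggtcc
Srebf2, chr15:82147088-82147157, plus strand: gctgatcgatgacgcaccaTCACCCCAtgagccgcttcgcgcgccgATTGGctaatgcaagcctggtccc
Insig1, chr5:28071342-28071411, plus strand: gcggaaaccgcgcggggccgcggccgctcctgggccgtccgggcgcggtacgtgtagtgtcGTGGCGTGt
Nsdhl, chrX:72918388-72918457, plus strand: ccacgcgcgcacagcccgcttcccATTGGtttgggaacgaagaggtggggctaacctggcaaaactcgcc
Cyp51, chr5:4104710-4104779, minus strand: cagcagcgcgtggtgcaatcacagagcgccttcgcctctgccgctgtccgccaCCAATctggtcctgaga
Lss, chr10:76531507-76531576, plus strand: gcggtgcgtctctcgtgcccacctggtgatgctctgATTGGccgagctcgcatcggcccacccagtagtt
Idi1, chr13:8885532-8885601, plus strand: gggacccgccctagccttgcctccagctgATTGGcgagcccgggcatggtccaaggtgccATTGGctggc

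CCAAT was present in all 7 windows, against 35.0% of the 11924 windows of tested genes. GGGCGG was likewise present in all 7, against 57.9%. In Hmgcs1 CCAAT occurred 3 times, and Idi1 and Nsdhl held 2 copies each. The full core TCACNCCAC was found in 1 of the 7, Hmgcs1, at 137 to 129 bases upstream of the start, against 1.006% of windows of tested genes. CACNCCAC was found in Hmgcs1 and, on the opposite strand, in Insig1, against 5.43%, and TCACNCCA in Hmgcs1 and Srebf2, against 3.30%. Over the 16 sterol synthesis enzymes with a window, 5 of them counted above, CCAAT was present in 15 and the full core in 1. These enzymes had 19 windows between them, and by window CCAAT was present in 15 and the full core in 1. A match describes letters in this window and is no evidence of binding, and the remaining windows say nothing of elements farther away.

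The 8 transcripts had a median length of 3037.5 bases and a median GC content of 47.2%, against 2681.5 bases and 50.5% over tested genes. Their levels spanned a wide range, and the order from highest to lowest was the same in both libraries. The highest was Hmgcs1 and the lowest Sqle, a span of 35.1-fold in D3BKO and 45.2-fold in D3BWT. Hmgcs1 stood above 94.6% of tested genes in D3BKO and 94.7% in D3BWT. Sqle stood above 28.1% of them in D3BKO and 24.1% in D3BWT. Hmgcs1 and Insig1 made up most of the summed FPKM of the 8 genes, with 44.2% and 33.0% of it in D3BKO, against 49.1% and 32.5% in D3BWT. After Insig1 came Nsdhl, Idi1, Lss, Srebf2 and Cyp51. Within D3BKO each gene was above the next one down beyond counting error, although Srebf2 over Cyp51 was close to the limit at a ratio of levels of 1.18 (1.0009 to 1.40). Within D3BWT 2 neighbouring pairs did not differ beyond it, Nsdhl over Idi1 at 1.12 (0.964 to 1.31) and Lss over Srebf2 at 1.005 (0.853 to 1.18).

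**Figure D1:**
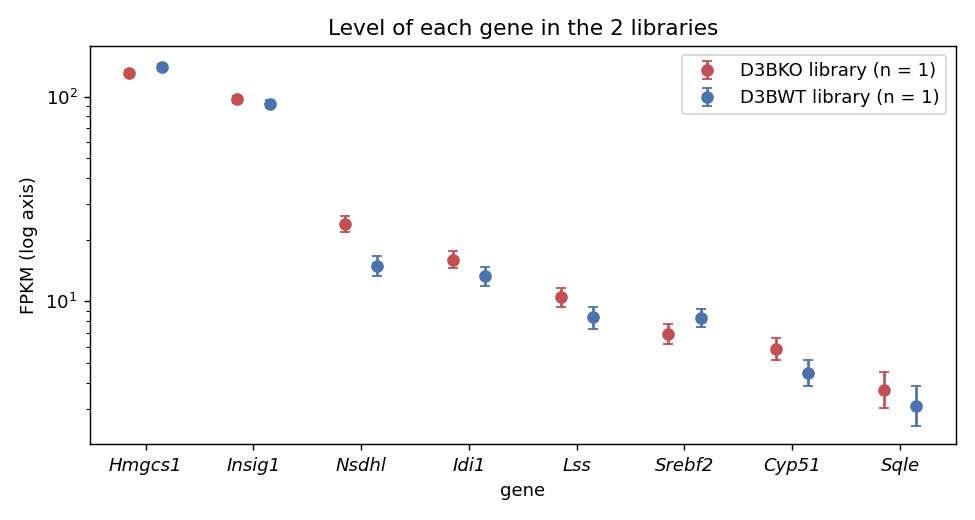
FPKM of the 8 genes on a log axis, ordered by level, with the D3BKO library at the left of each pair and the D3BWT library at the right. Points are the deposited values of 1 library each and bars are 95% counting intervals. Nsdhl shows the widest gap, 23.86 FPKM in D3BKO and 14.92 FPKM in D3BWT, while Hmgcs1 and Srebf2 are lower in D3BKO.

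Between the libraries, 6 of the 8 genes had a ratio above 1 and 2 had a ratio below 1. Of all tested genes 45.9% were above 0 on the log2 scale, and 6823 of 11746 after rescaling to the same FPKM total. Nsdhl was the member called higher, which requires a difference of at least 1.5-fold on the log2(FPKM + 1) scale and a counting interval that excludes 1, and no member was called lower. Genes were tested if they reached 1 FPKM in 1 or both libraries, and of these 11746 genes the same rule called 4.35% higher and 3.41% lower, 511 and 401 genes. A single call does not set the 8 genes apart from this background. After rescaling to the same FPKM total these counts were 674 higher and 298 lower. With a fold of 2 no member was called, against 0.902% of tested genes higher and 0.673% lower. With the smallest fold tried, 5:4, Nsdhl and Cyp51 were higher, against 10.4%, and no member lower, against 11.8%. Without a fold requirement, a rule chosen after seeing the data, 4 of the 8 had a counting interval above 1, against 18.2% of tested genes, and 2 had one below 1, against 22.4%. After rescaling to the same FPKM total 5 of the 8 were above 1 and 0 below, against 3100 and 1681 of the 11746 genes. The median log2 ratio of the 8 was 0.23, against -0.03 over all tested genes. Since the 8 genes were proposed with earlier results of these data known, these counts are a description.

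Hmgcs1 encodes the cytosolic synthase that condenses acetyl-CoA and acetoacetyl-CoA to HMG-CoA, the entry to the mevalonate steps. It was at 130.15 FPKM in D3BKO and 140.0 FPKM in D3BWT, on 4245 and 4387 counts. The ratio was 0.930 (0.891 to 0.970), slightly lower in D3BKO. The interval lies below 1 as deposited but includes 1 when both libraries are rescaled to the same FPKM total, where the log2 ratio is -0.02.

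Idi1 encodes the isomerase that turns isopentenyl diphosphate into its reactive partner, so that isoprene units can be joined. It was at 16.01 FPKM in D3BKO and 13.27 FPKM in D3BWT, on 457 and 364 counts. The ratio was 1.21 (1.05 to 1.39), above 1 beyond counting error and short of 1.5-fold.

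Sqle encodes squalene epoxidase, which adds the oxygen that the ring closure needs and is a slow step of the chain. It was at 3.71 FPKM in D3BKO and 3.10 FPKM in D3BWT, on 101 and 81 counts. The ratio of 1.20 (0.885 to 1.62) has nearly the size of that of Idi1, and at this depth its interval includes 1.

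Lss encodes lanosterol synthase, which closes the 4 rings. It was at 10.48 FPKM in D3BKO and 8.35 FPKM in D3BWT, on 332 and 254 counts. The ratio was 1.26 (1.06 to 1.48).

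Cyp51 encodes the cytochrome P450 that removes the first methyl group from lanosterol. It was at 5.87 FPKM in D3BKO and 4.48 FPKM in D3BWT, on 255 and 187 counts. The ratio was 1.31 (1.08 to 1.59), the second highest of the 8. The exons of Cyp51 overlap those of Akap9 on the opposite strand in the GENCODE M21 annotation, and the protocol does not mention strand. Akap9 was at 4.23 FPKM in D3BKO and 3.83 FPKM in D3BWT, and the part of its reads in the Cyp51 value was not tested. Hmgcs1, Idi1 and Lss each overlap 1 noncoding or unclassified gene on the opposite strand, and Sqle, Nsdhl, Insig1 and Srebf2 overlap none.

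Nsdhl, which lies on the X chromosome, encodes a dehydrogenase that takes part in removing the next methyl groups. It was at 23.86 FPKM in D3BKO and 14.92 FPKM in D3BWT, on 521 and 313 counts. The ratio was 1.60 (1.39 to 1.85), the highest of the 8, and its log2 ratio of 0.64 stood above that of 96.2% of tested genes. By level, Nsdhl stood above 76.0% of tested genes in D3BKO and above 65.3% in D3BWT.

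Insig1 encodes the sterol-sensing anchor that keeps SCAP and SREBP in the endoplasmic reticulum. It was at 97.19 FPKM in D3BKO and 92.52 FPKM in D3BWT, on 2563 and 2344 counts. The ratio was 1.05 (0.993 to 1.11). Its interval includes 1 as deposited, whereas rescaling to the same FPKM total gives a log2 ratio of 0.16 and an interval above 1.

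Srebf2 encodes SREBP2 itself, the factor that activates the enzymes above. It was at 6.95 FPKM in D3BKO and 8.31 FPKM in D3BWT, on 317 and 364 counts. The ratio was 0.836 (0.717 to 0.975), the lowest of the 8, while 5 of the 6 enzyme genes had ratios above 1. The transcript level does not report how much SREBP2 protein is cut and active.

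The 8 genes did not share 1 ratio. A ratio of 2 ratios does not depend on how the libraries are scaled, and of the 28 pairs of members 16 had such a value beyond counting error. The pairs reuse the same 8 ratios. The share among pairs of other genes was not computed, so this count does not set the 8 genes apart. Nsdhl over Srebf2 had the largest, 1.91 (1.55 to 2.36), followed by Nsdhl over Hmgcs1 at 1.72 (1.48 to 1.998). Nsdhl also stood above Insig1, at 1.52 (1.31 to 1.78), above Idi1, at 1.33 (1.08 to 1.62), and above Lss, at 1.27 (1.02 to 1.59). Nsdhl over Cyp51, at 1.22 (0.958 to 1.55), and Nsdhl over Sqle, at 1.33 (0.951 to 1.87), were within counting error. Among Idi1, Sqle, Lss and Cyp51 no pair differed beyond it. Cyp51 over Lss was at 1.04 (0.807 to 1.35) and Lss over Idi1 at 1.04 (0.836 to 1.30). Their ratios ran from 1.20 to 1.31, and the intervals of these pairs leave room for differences either way. Hmgcs1 lay below 5 of the other members beyond counting error, with Insig1 over Hmgcs1 at 1.13 (1.05 to 1.21).

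**Figure D2:**
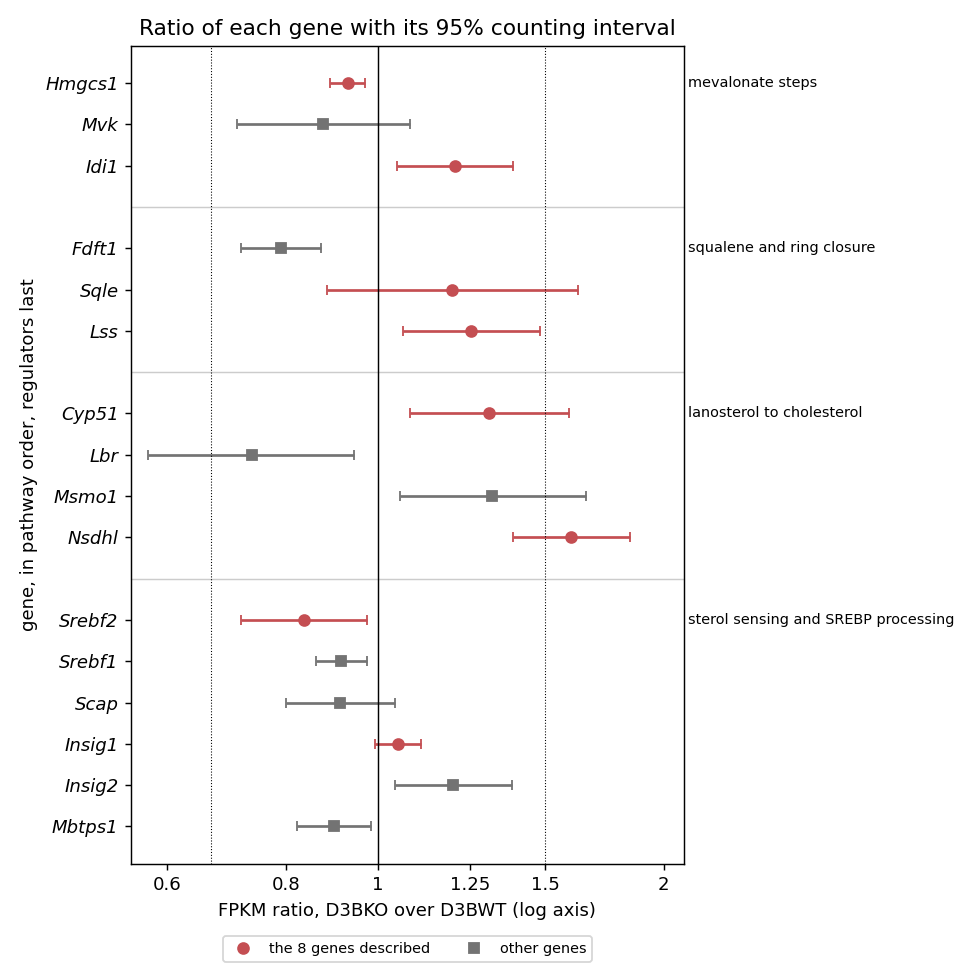
FPKM ratio of D3BKO over D3BWT on a log axis for the enzymes of sterol synthesis named in the text, in pathway order, then the named genes of sterol sensing, with 95% counting intervals. Round points are the 8 genes described, square points other genes, the solid line a ratio of 1 and the dotted lines 1.5-fold. Nsdhl lies past the upper dotted line at 1.60, Idi1, Sqle, Lss and Cyp51 lie between 1.20 and 1.31, and Hmgcs1 and Srebf2 lie below 1.

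The rest of the sterol synthesis chain was compared through a list of 21 enzymes that holds the 6 enzyme members. All 21 were at or above 1 FPKM in at least 1 library. Nsdhl was the 1 enzyme of the 21 called higher and none was called lower, against 4.35% and 3.41% of tested genes. This call does not set the list apart from that background. A counting interval above 1 was held by 9 and one below by 4, against the 18.2% and 22.4% of tested genes. After rescaling to the same FPKM total these were 9 and 1, against 3100 and 1681 of the 11746 tested genes. The 15 enzymes outside the 8 genes had a median log2 ratio of -0.04, with 6 above 0 and 9 below, against 0.23 for the 8 genes. The 8 genes include the regulators Insig1 and Srebf2 and were chosen with earlier results of these data known, so this gap is a description. Rescaling to the same FPKM total turned the median of the 15 positive, with 8 above 0 and 7 below, and put 13 of the 21 above 0, against 11 as deposited. The summed FPKM of the 21 enzymes was 489 in D3BKO and 484 in D3BWT, and Hmgcs1 alone made up 26.6% of it in D3BKO and 29.0% in D3BWT.

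By stage, the median log2 ratio was -0.06 over the 8 mevalonate enzymes, which rescaling to the same FPKM total turned to 0.02, and 0.22 over the 10 enzymes from lanosterol to cholesterol. Mvk, the mevalonate kinase, had the lowest log2 ratio of its stage, -0.17, with a ratio of 0.877 (0.711 to 1.08). Fdft1, the synthase that makes squalene and so the step just before Sqle, went the other way from Sqle and Lss. It was at 26.59 FPKM in D3BKO and 33.59 FPKM in D3BWT, a ratio of 0.792 (0.718 to 0.872). In the last stage 5 of 10 enzymes had an interval above 1, against 18.2% of tested genes, and Cyp51 and Nsdhl are among these 5. Below 1 was the interval of 1 enzyme, Lbr, against 22.4% of tested genes. Msmo1, the methyl oxidase that acts just before Nsdhl, was at 10.70 FPKM in D3BKO and 8.10 FPKM in D3BWT, a ratio of 1.32 (1.06 to 1.66). Lbr, a sterol reductase that is also a protein of the nuclear envelope, had a ratio of 0.736 (0.572 to 0.945), and its interval includes 1 after that rescaling.

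**Figure D3:**
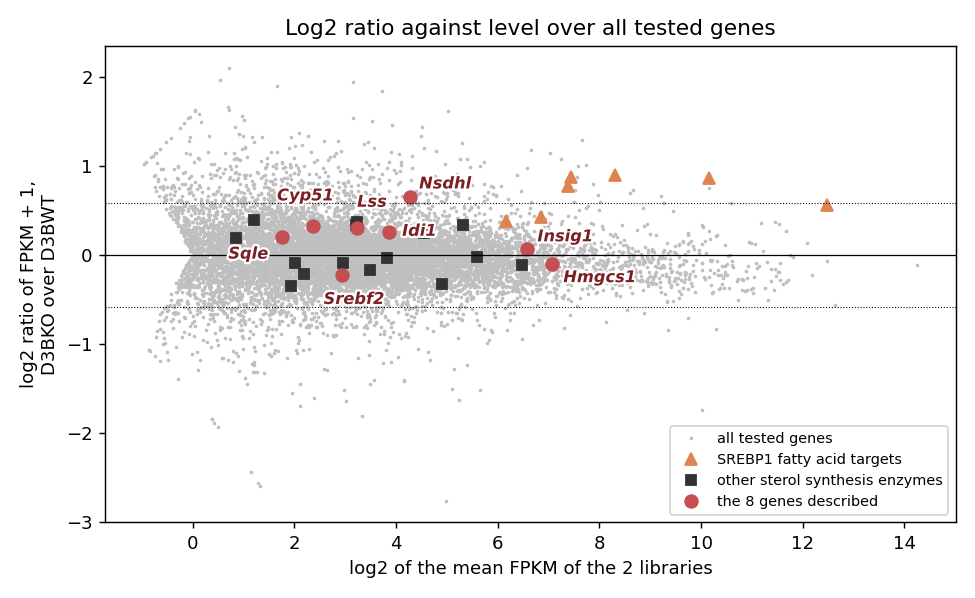
Log2 ratio of FPKM + 1, D3BKO over D3BWT, against the log2 mean FPKM of both libraries for all 11746 tested genes in grey. Round points are the 8 genes described, squares the other sterol synthesis enzymes, triangles fatty acid targets of SREBP1, and dotted lines mark 1.5-fold. Nsdhl is the sterol gene beyond the dotted line, at 0.64, while the triangles run from 0.38 to 0.89 with a median of 0.77.

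The 7 genes of sterol sensing and SREBP processing, Insig1 and Srebf2 among them, had a median log2 ratio of -0.12. This median became -0.04 after rescaling to the same FPKM total. None of the 7 was called, against 4.35% of tested genes called higher and 3.41% lower. Srebf1, which encodes SREBP1, was at 45.68 FPKM in D3BKO and 49.88 FPKM in D3BWT, a ratio of 0.916 (0.860 to 0.975), so both SREBP genes had ratios below 1, with intervals that include 1 after rescaling to the same FPKM total. Scap, the escort protein, had a ratio of 0.913 (0.7997 to 1.04), and Mbtps1, which makes the first cut in SREBP, 0.899 (0.821 to 0.983), with an interval that includes 1 after that rescaling or with the median of all genes set to 0. Insig2, the second anchor, had the highest of this list, 1.20 (1.04 to 1.39). The 5 genes that guide the turnover of sterol enzymes had no interval that excluded 1 as deposited. Of all tested genes 18.2% were above 1 and 22.4% below. After rescaling to the same FPKM total 3 of the 5 were above 1, and so were 3100 of the 11746 tested genes. Rnf139, a ubiquitin ligase, had the highest deposited log2 ratio of this list, 0.14.

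A further list held genes of sterol uptake and transport, with targets of SREBP2 among them. Of its 9 tested genes 4 were above 0 and 5 below. The median was -0.03 and became 0.05 after rescaling to the same FPKM total. Scarb1, the receptor for high-density lipoprotein, had the lowest log2 ratio, -0.43, at 16.33 FPKM in D3BKO and 22.35 FPKM in D3BWT. Gramd1b, which carries sterol from the plasma membrane, had the highest, 0.29.

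The list for LXR, the nuclear receptor that senses surplus sterol, held both receptor genes and 5 genes of its response or of sterol efflux. As deposited 4 of the 7 were above 0 and 3 below, those below being the receptors Nr1h2, at -0.36, and Nr1h3, at -0.17, and Apoe. Apoe, which encodes a lipoprotein component, was called lower. Apoe was at 647 FPKM in D3BKO and 1060 FPKM in D3BWT, a ratio of 0.610 (0.593 to 0.627). Abcg1, a sterol exporter of macrophages and other cells, had the highest log2 ratio of the list, 0.55, at 3.95 FPKM in D3BKO and 2.39 FPKM in D3BWT, and was called higher after rescaling to the same FPKM total. Abca1, the other exporter, named after its value was seen, had a ratio of 1.014 (0.932 to 1.10).

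Of the fatty acid genes that SREBP1 activates, all 7 had a counting interval above 1, against 18.2% of tested genes. Of the 7, 4 were called higher, against 4.35%, and the median log2 ratio was 0.77. Their counts ran from 2655 for Acss2 in D3BWT to 330249 for Scd1 in D3BKO, so their counting intervals are narrow. Acly had a ratio of 1.86, Acaca of 1.83, Fasn of 1.82 and Me1 of 1.71, and the lowest was Elovl6 with 1.30 (1.248 to 1.36). Of the 8 sterol genes, Nsdhl was above the ratio of Elovl6. Cyp51, at 1.31 (1.08 to 1.59), was level with Elovl6 within counting error. On the log2(FPKM + 1) scale Cyp51 was the lower of these 2, at 0.33 against 0.38. The difference between the lists compares 2 libraries and was not tested over mice.

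**Figure D4:**
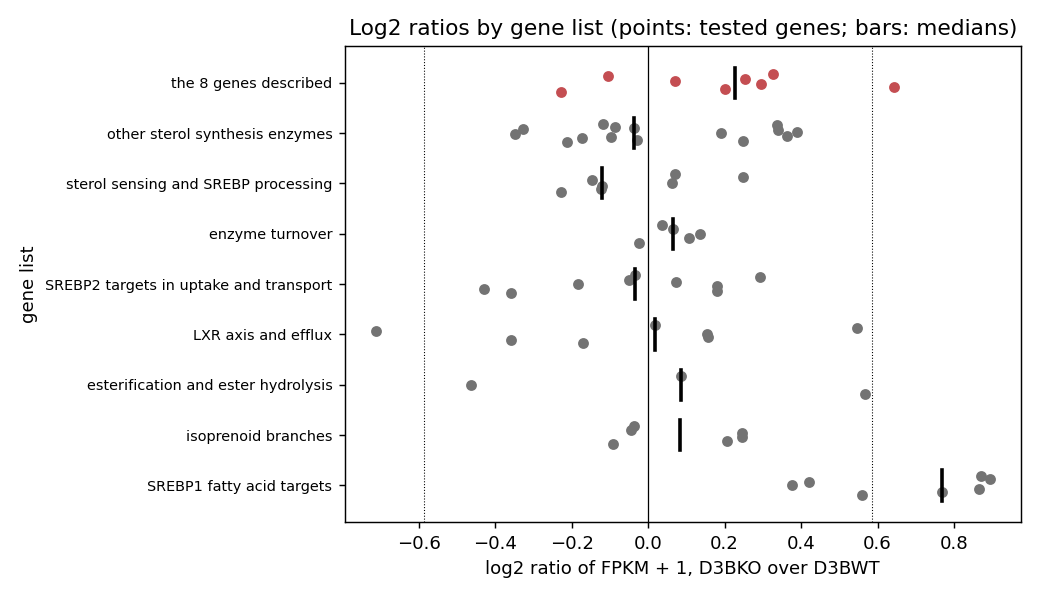
Log2 ratio of FPKM + 1, D3BKO over D3BWT, for the tested genes of each list, with a bar at the list median and dotted lines at 1.5-fold. The 8 genes described have a median of 0.23, the other sterol synthesis enzymes -0.04, sterol sensing genes -0.12 and SREBP1 fatty acid targets 0.77.

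Markers of other cells differed between the libraries, and their part in the sterol results was not tested. Over all tested genes 4.35% were called higher and 3.41% lower. Macrophage markers summed to 372 FPKM in D3BKO and 231 FPKM in D3BWT, with 7 of 7 above 0 and 5 called higher. Fibroblast markers summed to 486 FPKM in D3BKO and 300.2 FPKM in D3BWT, with 4 of 6 called higher. Endothelial markers summed to 143 FPKM in D3BKO and 213 FPKM in D3BWT, with 3 of 6 called lower. White adipocyte markers summed to 744 FPKM in D3BKO and 407 FPKM in D3BWT, with all 5 tested above 0 and Tcf21 and Hoxc9 at 0 in both. Mural cell markers summed to 111 FPKM in D3BKO and 90.3 FPKM in D3BWT, with 1 of 5 called higher. Brown adipocyte markers summed to 14677 FPKM in D3BKO and 18805 FPKM in D3BWT. Of these, 8 of 9 were below 0 as deposited and 7 of 9 after rescaling to the same FPKM total. As deposited Dio2 was called lower, at a ratio of 0.620 (0.571 to 0.674), and Elovl3 higher, at 1.65 (1.46 to 1.87). Markers of all adipocytes split 3 above and 3 below 0 as deposited. Schwann cell markers, from cells that make much sterol for myelin, summed to 270.5 FPKM in D3BKO and 254 FPKM in D3BWT, of which S100b made up 203 FPKM in D3BKO and 202 FPKM in D3BWT. Among them Pmp22 had a ratio of 1.45 (1.31 to 1.61), 3 of 4 tested were above 0, and Sox10 rested on 5 counts in D3BKO and 10 in D3BWT. Markers of red blood cells had a ratio of sums of 0.980 with Hbb-bt at 0 in both libraries. Lymphocyte markers summed to 1.73 FPKM in D3BKO and 2.79 FPKM in D3BWT with Cd3e at 0 in D3BKO. Skeletal muscle markers summed to 2.99 FPKM in D3BKO and 2.41 FPKM in D3BWT with Ckm at 0 in both. Of that sum Acta1, called higher, held 2.71 FPKM in D3BKO and 1.38 FPKM in D3BWT, while Myh1, Myh4 and Tnnt3 were at 0 in D3BKO and Mylpf was at 0.28 FPKM in D3BKO and 0.74 FPKM in D3BWT.

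Of the other ways of processing, 8 can change the log2 ratio of a gene, and under all 8 each of the 8 genes kept the direction it had as deposited. Nsdhl was past 1.5-fold in 7 of these, the exception being a pseudocount of 5, where its log2 ratio was 0.53. The counting interval can be changed by 6 of them, the rescalings and the removal of the trend with length, GC content and expression. Idi1, Lss, Cyp51 and Nsdhl had an interval above 1 in all 6. Hmgcs1 had one below 1 in 4 of 6 and Srebf2 in 3 of 6, and Insig1 had one above 1 in 4 of 6. The interval of Sqle included 1 in all 6.

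**Figure D5:**
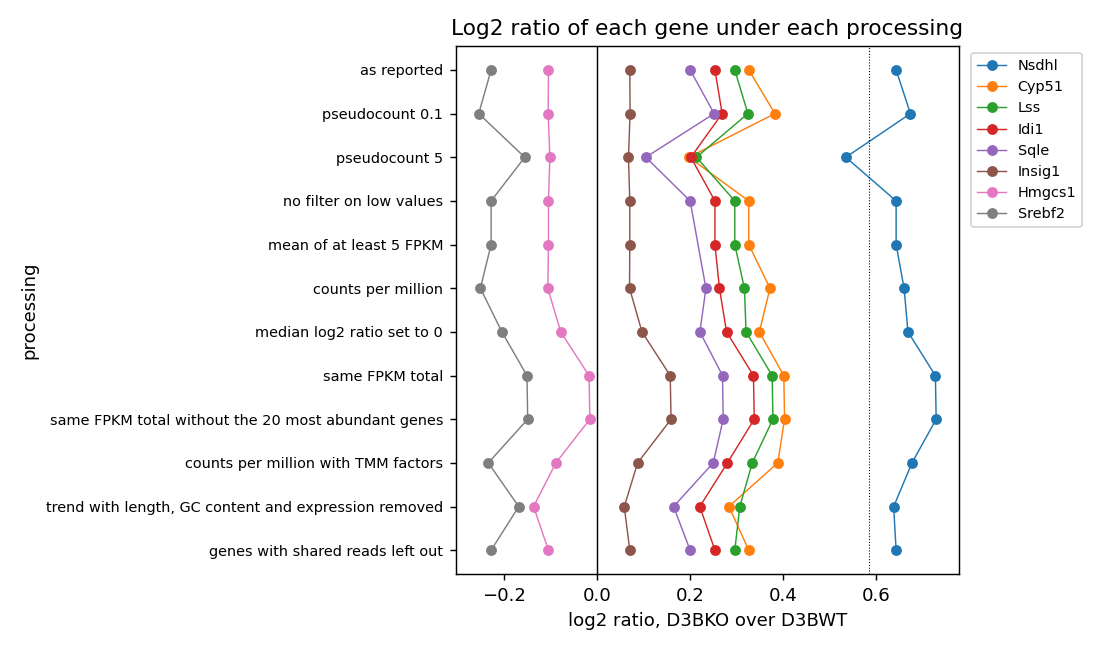
Log2 ratio of each of the 8 genes, D3BKO over D3BWT, as reported and under 11 other ways of processing, 1 line per gene, with a dotted line at 1.5-fold. Nsdhl keeps the highest value throughout, between 0.53 and 0.73, Srebf2 the lowest, between -0.25 and -0.15, and no line crosses 0.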

How the data were processed

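RNA was extracted from frozen brown adipose tissue and the polyadenylated fraction was sequenced after fragmentation and PCR, as the labels' protocols state. The authors deposited per gene an expected count and an FPKM value, with a transcript length, per the file headers. RSEM, without a version, and the build mm9 are named in the submitters' processing notes, with the aligner not given in the sources used here. Deposited expected counts divide reads that match several genes, and 94.1% in D3BKO and 94.0% in D3BWT were whole to within 0.05. The counts of all 8 genes were whole. A gene not listed was set to 0.

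Entrez identifiers were matched to symbols in a RefSeq table of GRCm38.p6, with 16134 of 16174 matched. Tested genes had at least 1 FPKM in either library. Expected counts were rounded for intervals, and the pseudocount of 1 on the log2(FPKM + 1) scale understates differences of low genes. Promoter windows are from RefSeq, GRCm38.p6, and overlaps from GENCODE M21 on GRCm38. As mm9 differs, no coordinate of the files is used. TMM factors came from edgeR 4.0.16, the trend with length, GC content and expression from splines with 5 knots in scikit-learn 1.9.0, and intervals from scipy 1.17.1. The intervals and calls were also run on simulated counts drawn with counting error alone. That run checks the calculation and says nothing of spread between mice, of lane or of shared reads.

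The members and the gene lists were chosen with earlier results of these data known. Named are all 8 members, set genes (Srebf1, Scap and Insig2 among them), genes of the sterol and lipid lists called at 1.5-fold, and the highest and lowest of each list, a few of which are not reported here. Alternatives were pseudocounts of 0.1 and 5, other filters and folds, depth-scaled counts, 4 rescalings, the trend removed, and genes with shared reads left out.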

Additional observations from a re-analysis of the deposited data

How the results depend on the processing

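The count of 1 member called higher, and of 1 pathway enzyme, became 0 for both with a pseudocount of 5 and with a fold of 2. With a fold of 5:4 there were 2 members and 6 pathway enzymes higher and 2 pathway enzymes lower. With the counting interval and no fold, chosen after seeing the data, 4 members were higher and 2 lower. Over all genes the 511 higher and 401 lower calls became 136 and 107 with a pseudocount of 5, 221 and 191 with a mean of at least 5 FPKM, 106 and 79 with a fold of 2, and 1219 and 1382 with a fold of 5:4. With a pseudocount of 0.1 there were 748 higher and 621 lower genes. The median log2 ratio of the 8 genes stayed between 0.15 and 0.30 and that of the 21 enzymes between 0.08 and 0.25 under every alternative that was run for them. Of 64 values of single members that an alternative could change, 60 stayed within their counting interval and 4 moved out of it, all for Hmgcs1 and Insig1 under the rescalings to the same FPKM total. Depth limits Sqle most, with 101 and 81 counts. No paired analysis was possible because each group has 1 library.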

Other observations

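Branches off the sterol chain, in lists for isoprenoid use, cholesterol esters and oxysterols, held no gene called as deposited. Over all tested genes 4.35% were called higher and 3.41% lower. With 6, 3 and 2 tested genes in these lists, the lack of a call does not set them apart. Of 6 tested genes that use isoprenoid units for ubiquinone, dolichol and protein prenylation, 3 were above 0 and 3 below, and 5 were above 0 after rescaling to the same FPKM total. Nus1, a subunit of the enzyme that makes dolichol precursors, was at 20.39 FPKM in D3BKO and 17.04 FPKM in D3BWT, a ratio of 1.20 (1.09 to 1.32). Pdss2, of the ubiquinone side chain, had a ratio of 0.933 (0.765 to 1.14). Soat1, which esterifies cholesterol, was at 1.55 FPKM in D3BKO and 0.72 FPKM in D3BWT, a ratio of 2.15 (1.41 to 3.34) that was not called on the log2(FPKM + 1) scale as deposited, was called after rescaling to the same FPKM total, and rests on counts that were not whole in D3BKO. Nceh1, a cholesteryl ester hydrolase, was at 2.72 FPKM in D3BKO and 4.13 FPKM in D3BWT, a ratio of 0.659 (0.517 to 0.836). Macrophage markers, given above, were higher in D3BKO than in D3BWT, and their part in the Soat1 value was not tested. Cyp27a1, which makes an oxysterol, had a ratio of 0.862 (0.785 to 0.947), with an interval that includes 1 after rescaling to the same FPKM total, and Ch25h rested on 11 counts in D3BKO and 15 in D3BWT.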
